A study of Mus musculus with 8 samples.

Results

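The Notch ligands and receptors of the mouse were followed in developing lower molars: the 5 ligands Jag1, Jag2, Dll1, Dll3 and Dll4, and the 4 receptors Notch1, Notch2, Notch3 and Notch4. They were chosen by gene symbol, as the complete set of canonical ligands and receptors, and all 9 were found among the 43629 Ensembl genes counted. RNA was sequenced from lower first molars of mouse embryos at E18.5, and each sample pooled the left and the right molar of 1 animal. The 4 control samples (J3, J5, J6 and J7) came from Jagged1 fl/fl embryos, littermates that carry the floxed gene without Cre and are called wild type in the study. The 4 mutant samples (K14J26, K14J28, K14J29 and K14J30) came from embryos of genotype K14:cre; Jagged1 fl/fl, so both groups share the floxed alleles and differ by the Cre transgene. The keratin 14 promoter drives Cre in the epithelium, whereas each sample held the whole tooth germ, so transcripts of mesenchyme and vessels were measured with those of the epithelium. Neither the labels nor the methods state the sex of the embryos or their grouping into litters. The question of the comparison was how loss of Jagged1 from the epithelium changes gene expression in the molar.

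Notch signaling passes between neighbouring cells. A ligand of the Jagged or Delta-like family on one cell binds a Notch receptor on the next, the receptor is cut by ADAM proteases and by gamma-secretase, and its freed intracellular domain joins RBPJ and a Mastermind protein in the nucleus to switch on targets of the Hes and Hey families. In teeth the pathway is known for its part in the layers of the dental epithelium, where Notch1 marks the stratum intermedium beside the enamel-forming ameloblasts.

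Between 17327224 and 28613574 reads per control sample and between 24692128 and 29792467 reads per mutant sample were counted on genes. Levels are given as CPM, the reads of a gene relative to its library after TMM scaling (trimmed mean of M values), where a count of 3 equals 0.0998 to 0.166 CPM. Several libraries stood apart. K14J26 had a TMM factor of 0.843 against 0.969 to 1.04 in the other 7 samples, and its 7 ameloblast marker genes summed to 114700 CPM. That list, led by Amelx, summed to 3959 CPM in K14J28, 26230 CPM in K14J29 and 9976 CPM in K14J30, and to 838, 2119, 3423 and 711 CPM in J3, J5, J6 and J7. Xist, transcribed from the inactive X chromosome of females, was at most 1.09 CPM except in K14J28 (1930 CPM) and K14J29 (1468 CPM). The 7 skeletal muscle markers, led by Acta1, summed to 340 CPM in J6 and 161 CPM in J7, against 2.98 to 14.8 CPM in the other 6 samples. Epithelial transcripts were present in every sample: the 8 dental epithelium genes, led by Krt5, summed to 5287 to 9271 CPM, and none of them was at 0 in any sample. The list was not compared with other epithelia, so it cannot tell molar from other epithelium.

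Of the 9 genes, 8 passed the count filter and 1, Dll3, did not. Among the 8, none was called higher, where 9.52% of the 17129 tested genes were, and 1 was called lower, where 6.61% were (quasi-likelihood test of edgeR, adjusted p by Benjamini-Hochberg over all tested genes, threshold 0.05). The share called in either direction was thus 1 of 8, against 16.1% of all tested genes. The called member was Jag1, the gene deleted by the design, and the other 7 were not called. Jag1 was also the single tested member with all mutant values on the same side of all control values, which held for 24.2% of tested genes. The study set a p up to 0.05 and a fold change from 0.5 upward, read here as an unadjusted p and an absolute log2 value, which Jag1 and Dll4 met, as did 14.2% of tested genes. At an unadjusted p under 0.05 in edgeR, 1 member was higher (Dll4). By the adjusted p, a stricter rule, DESeq2 called none higher (Dll4 at a DESeq2 adjusted p of 0.101). The median log2 fold change of the 8 genes was -0.04, beside 0.01 for all tested genes, and the median absolute log2 fold change was 0.12, beside 0.22. The background itself, 1631 higher and 1133 lower genes, depended on single libraries. It was 373 and 287 without J3, 451 and 388 without J5, 854 and 553 without J6, 300 and 236 without J7, 2479 and 1843 without K14J28, and 250 and 170 without K14J29. Without J6 and J7 together, 3 genes were higher and 4 lower, and without K14J28 and K14J29 together, 1406 and 741.

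**Figure D1:**
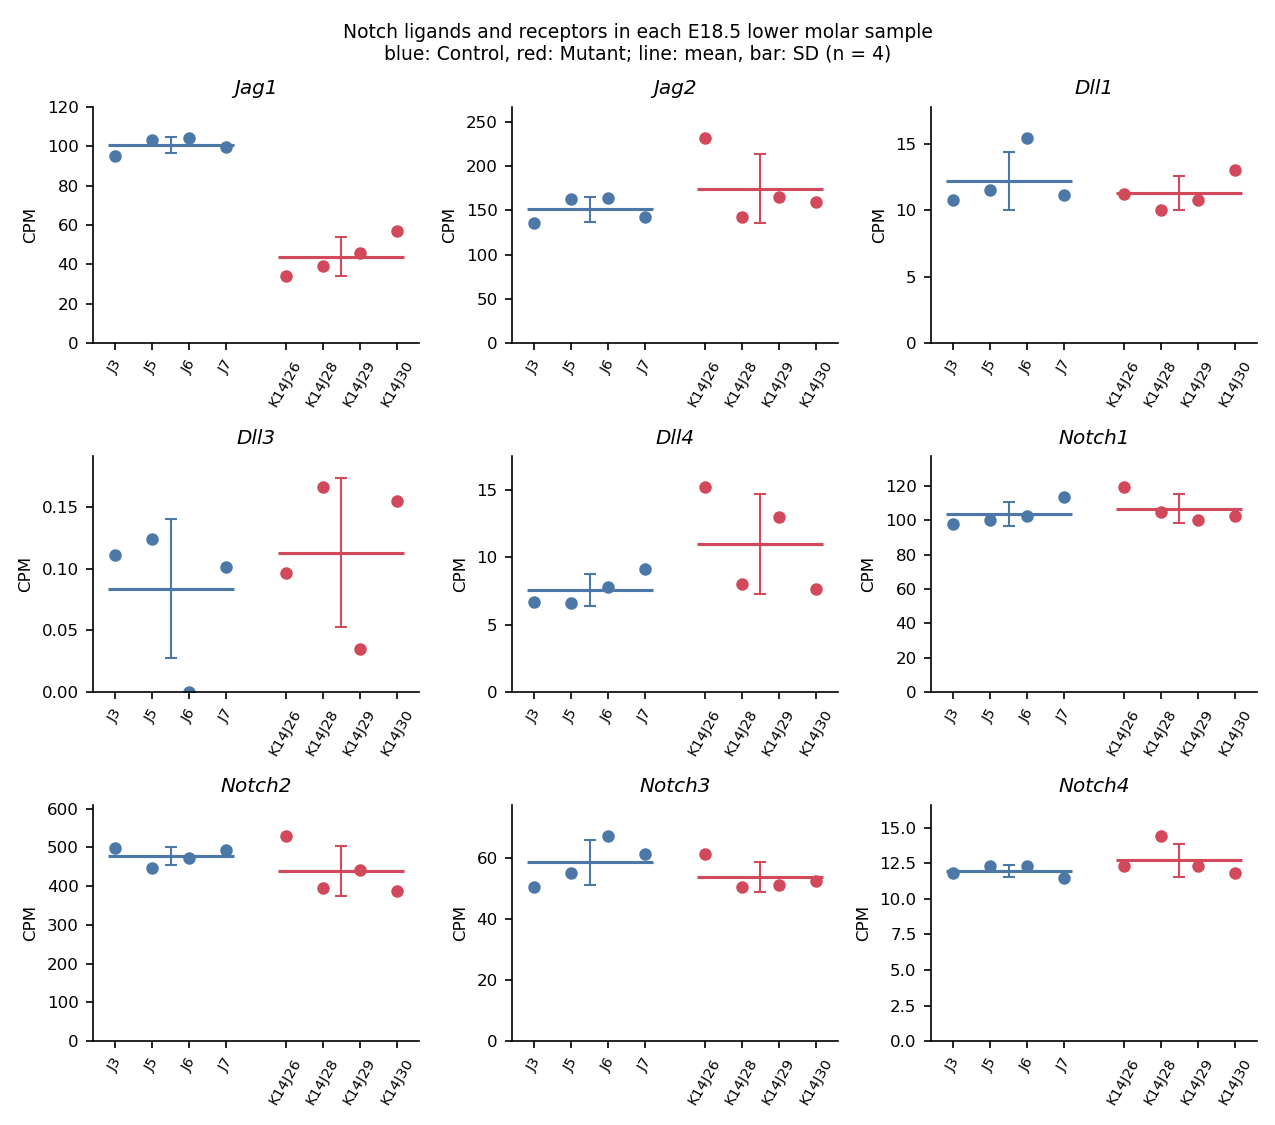
Level of each of the 9 genes (y axis, CPM, from 0) in each of the 8 samples (x axis), with control samples in blue and mutant samples in red, a line at the group mean and a bar of 1 SD (n = 4). The mutant values of Jag1, from 34.0 to 57.1 CPM, all lie under the control values, from 95.2 to 104 CPM, while the groups overlap for the other 8 genes, and the Dll3 panel rests on at most 5 counts per sample.

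Jag1, the deleted ligand (ENSMUSG00000027276, chromosome 2 of GRCm38 from 137081456 to 137116644, minus strand), was at 95.2, 103, 104 and 99.9 CPM in J3, J5, J6 and J7. In K14J26, K14J28, K14J29 and K14J30 it was at 34.0, 39.0, 45.96 and 57.1 CPM. All 4 mutants were below all 4 controls, and the mutants differed more among themselves than the controls did. Relative to the control mean, the mutants retained 33.8% in K14J26, 38.7% in K14J28, 45.6% in K14J29 and 56.7% in K14J30, and the coefficient of variation was 22.8% in mutants and 4.09% in controls. Jag1 fell by 1.19 on the log2 scale (95% confidence interval -1.51 to -0.88), lower in 4 of 4 mutants, and its adjusted p was 0.00517 (edgeR quasi-likelihood, Benjamini-Hochberg). The counts cover the whole gene, and the exons flanked by loxP sites are not given in the sources used here, so reads of deleted and remaining exons were not separated. In whole molars, fewer cells that express a gene and less RNA per cell cannot be told apart. Without J6 and J7 the log2 fold change was -1.17 and its adjusted p 0.115 (edgeR, 2 controls against 4 mutants), within a range of 2.04e-12 to 0.115 over all alternatives. Without K14J28 and K14J29 it was -1.14, and without K14J26 it was -1.09, and Jag1 was called in both fits.

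Jag2, the other Jagged ligand (ENSMUSG00000002799, chromosome 12 from 112907819 to 112929776, minus strand), was at 136, 163, 164 and 143 CPM in the controls J3, J5, J6 and J7. In K14J26, K14J28, K14J29 and K14J30 it was at 232, 142, 165 and 160 CPM. K14J26 was the highest of all samples, K14J29 exceeded the highest control by under 1 CPM, and K14J28 and K14J30 lay within the control range. Its log2 fold change was 0.21 (95% confidence interval -0.12 to 0.53, standard error 0.14), with 2 of 4 mutants above every control (adjusted p = 0.331, edgeR quasi-likelihood, Benjamini-Hochberg). Without K14J26 the log2 fold change of Jag2 was 0.04 (edgeR adjusted p = 0.764, in a range of 0.103 to 0.764 over the alternatives). It was 0.39 with Xist as a covariate and 0.37 without K14J28 and K14J29 (edgeR adjusted p = 0.103 and 0.136). K14J26 was also the sample with the highest sum of the 8 dental epithelium markers, 9271 CPM against 6213, 7895 and 7072 CPM in K14J28, K14J29 and K14J30 and 5878, 5756, 6149 and 5287 CPM in J3, J5, J6 and J7. Of those 8 markers, 1 was called higher (Krt14) and none lower, and their part in the Jag2 value was not tested.

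Dll1, a Delta-like ligand known for its action in neural and muscle progenitors (ENSMUSG00000014773, chromosome 17 from 15367354 to 15376872, minus strand), ranged from 10.7 to 15.5 CPM in controls and from 10.02 to 13.04 CPM in mutants. The highest value was that of J6, and the groups overlapped. Its log2 fold change of -0.12 (95% confidence interval -0.43 to 0.19) had an adjusted p of 0.576 in the edgeR test, and the sign turned without J6, at 0.010. Exons of the antisense gene A930024N18Rik cover 867 bases, or 20.5%, of the Dll1 exons, and since the library kit does not mark strand, reads of this stretch cannot be assigned to either gene. A930024N18Rik itself was at 0.699 to 1.30 CPM. Dll3, a divergent ligand known from somite formation (ENSMUSG00000003436, chromosome 7 from 28293553 to 28302238, minus strand), had 2, 3, 0 and 3 counts in J3, J5, J6 and J7 and 2, 5, 1 and 4 counts in K14J26, K14J28, K14J29 and K14J30. These counts were at the limit of detection in both groups, and no fold change was computed.

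Dll4, the ligand known from sprouting blood vessels (ENSMUSG00000027314, chromosome 2 from 119325784 to 119335962, plus strand), was at 6.70, 6.60, 7.83 and 9.15 CPM in J3, J5, J6 and J7. In K14J26, K14J28, K14J29 and K14J30 it was at 15.2, 8.05, 13.0 and 7.68 CPM. K14J26 and K14J29 lay above every control, while K14J28 and K14J30 lay inside the control range. For Dll4 the log2 fold change was 0.53 (95% confidence interval 0.01 to 1.06, standard error 0.23), higher than every control in 2 of 4 mutants (adjusted p = 0.140, edgeR quasi-likelihood, Benjamini-Hochberg). In the fits that each left out 1 sample it ran from 0.34 without K14J26 to 0.67 without K14J30, with edgeR adjusted p values from 0.0653 to 0.295. Its adjusted p was not under 0.05 in any of the 18 alternative fits, while by the criteria of the study, a separate alternative call rule, Dll4 was called higher.

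The 12 endothelial markers, led by Cdh5, summed to 409, 410, 419 and 449 CPM in J3, J5, J6 and J7 and to 400, 369, 399 and 332 CPM in K14J26, K14J28, K14J29 and K14J30. No gene of the list was at 0, none was called higher and 1, Tie1, was called lower, and the list's median log2 fold change was -0.16. Every mutant sum lay below every control sum, and among the mutants the sums were highest in K14J26 and K14J29, as Dll4 was. The endothelial genes Tek, Cldn5, Erg, Sox17 and Vwf were highest of all samples in K14J26 (30.5, 12.2, 11.7, 5.62 and 23.6 CPM), and Kdr was highest in K14J29 (69.1 CPM). The other 6 genes of the list were highest in a control, and of these Cdh5, Tie1 and Plvap were lower in every mutant than in every control. Groups without overlap, in either direction, were found for 24.2% of all tested genes, and the list was not tested as a set. K14J26 and K14J29, the samples highest in Dll4, also had the highest sums of the ameloblast markers, of which 5 of 6 tested genes were called higher, and of the 4 odontoblast markers, which summed to 7483 and 5693 CPM there against 2347 and 3500 CPM in K14J28 and K14J30 and 708 to 1994 CPM in the controls. Single genes differed from these sums: the ameloblast gene Odam was highest in K14J28 (456.6 CPM, against 373.7 CPM in K14J26), and the odontoblast gene Dmp1 was lower in K14J26 (254 CPM) than in K14J30 (372 CPM), J5 and J6 (265.5 CPM each). The odontoblast list was led by Dspp, 3 of its 4 genes were called higher, and neither list had a gene at 0 in all samples. The part of endothelium, ameloblasts and odontoblasts in the Dll4 value was not tested. The antisense gene Gm14207 shares 214 bases, or 5.56%, of the Dll4 exons and was at 0.312 to 0.582 CPM.

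**Figure D2:**
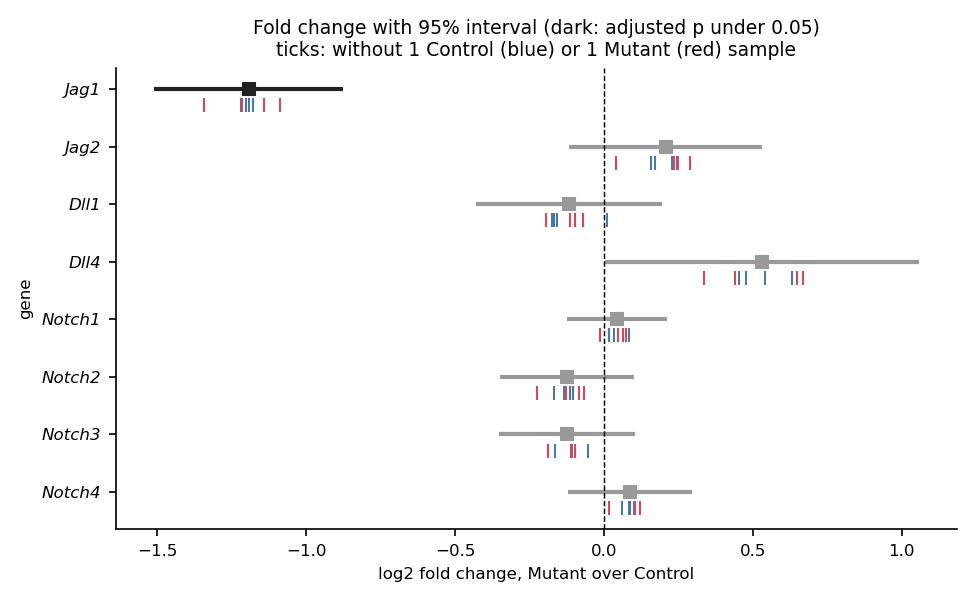
Log2 fold change of mutant over control (x axis) for the 8 tested genes (y axis), as a square with its 95% confidence interval, dark where the adjusted p was under 0.05, with ticks under it for the fits that left out 1 control (blue) or 1 mutant (red) sample. Jag1 stays between -1.34 and -1.09 in those fits, while the interval of Dll4 runs from 0.01 to 1.06 and those of the other 6 genes include 0.

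Set on a common scale per kilobase of annotated exons, the ligands of the control molars were ordered Jag2, Jag1, Dll1, Dll4 and Dll3. Jag2 had 21.7 ± 2.03 CPM per kilobase (SD, n = 4) and Jag1 had 17.3 ± 0.707, and their control values did not overlap. Dll1 followed with 2.90 ± 0.516 and Dll4 with 1.97 ± 0.310 CPM per kilobase, again without overlap, and Dll3 had 0.0295 ± 0.0199. In the mutants Jag2 had 25.1 ± 5.66 CPM per kilobase and Jag1 7.55 ± 1.72, and Dll4 (2.85 ± 0.967) and Dll1 (2.67 ± 0.303) overlapped.

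The makeup of the ligand pool differed between the groups, on a measure that does not depend on how libraries are scaled. Jag1 made up 40.7%, 38.9%, 38.0% and 40.2% of the summed ligand level per kilobase in J3, J5, J6 and J7, and 12.7%, 21.1%, 21.1% and 25.9% in K14J26, K14J28, K14J29 and K14J30. The Jag2 share was 48.5%, 51.2%, 49.9% and 48.0% in the controls and 72.8%, 64.6%, 63.1% and 60.6% in the mutants. Both shares were without overlap between the groups, and because shares add to the whole, a lower Jag1 share raises those of the other ligands. The ratio of Jag2 to Jag1 per kilobase was 1.19, 1.32, 1.31 and 1.20 in J3, J5, J6 and J7. It was 5.71 in K14J26, 3.06 in K14J28, 2.996 in K14J29 and 2.34 in K14J30, so K14J26, the sample with the least Jag1 and the most Jag2, stood apart again. The summed level of the 5 ligands was 43.9 ± 3.10 CPM per kilobase (SD, n = 4) in controls and 38.2 ± 5.81 in mutants, with overlapping values from 40.2 to 47.2 and from 31.7 to 45.8. With the longest transcript as the length of each gene, the Jag1 share of the controls was 33.9%, in place of 39.4%.

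**Figure D3:**
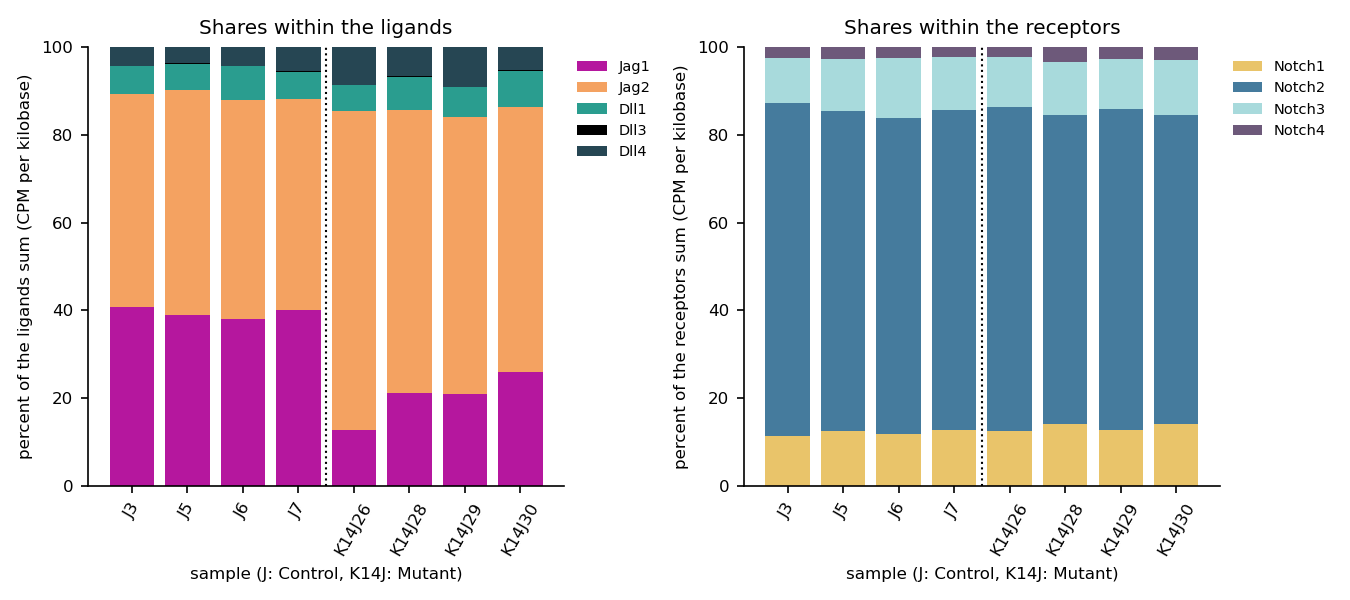
Percent of the summed ligand level (left) and of the summed receptor level (right), from CPM per kilobase of exons (y axis), taken up by each gene in each of the 8 samples (x axis, controls left of the dotted line and mutants right of it). The Jag1 part lies between 38.0% and 40.7% in the controls and between 12.7% and 25.9% in the mutants, while Notch2 takes 70.3% to 76.0% of the receptor level in all samples.

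Among the receptors, which all release an intracellular domain on cleavage, Notch2 (ENSMUSG00000027878, chromosome 3 from 98013527 to 98150361, plus strand) was the most abundant of all 9 genes per kilobase. It was at 497, 448, 472 and 494 CPM in J3, J5, J6 and J7 and at 530, 395, 442 and 387 CPM in K14J26, K14J28, K14J29 and K14J30. K14J26 lay above all controls and the other 3 mutants lay below all controls, so the mutants fell on both sides of the control range. For Notch2 the log2 fold change was -0.12 (95% confidence interval -0.35 to 0.10, standard error 0.10), lower than every control in 3 of 4 mutants (adjusted p = 0.408, edgeR quasi-likelihood, Benjamini-Hochberg). Leaving out K14J26 moved it to -0.23 with an edgeR adjusted p of 0.0488, in a range of 0.0488 to 0.811 over the alternatives, and this was the single alternative of the 18 in which Notch2 was called.

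Notch1, the receptor known from the stratum intermedium (ENSMUSG00000026923, chromosome 2 from 26457903 to 26516663, minus strand), was at 98.0, 100.5, 102 and 114 CPM in J3, J5, J6 and J7. The mutants K14J26, K14J28, K14J29 and K14J30 had 120, 105, 100.5 and 102 CPM. The groups overlapped, with K14J26 highest. Its log2 fold change was 0.04 (95% confidence interval -0.13 to 0.21), with an adjusted p of 0.709 in the edgeR test. The sign turned without K14J26 (-0.013) and with library size as the only scaling (-0.062), which moved the median of all genes to -0.093. The 6 stratum intermedium markers, led by Alpl, summed to 1338, 1436, 1479 and 1296 CPM in J3, J5, J6 and J7 and to 2136, 1485, 1773 and 1762 CPM in K14J26, K14J28, K14J29 and K14J30. None of these 6 genes was called in either direction and none was at 0. Alpl, Cdh1, Nectin1, Hs3st1 and Cldn1 were highest of all samples in K14J26, with Cldn1 at 420.7 CPM there against 108.5 to 147.7 CPM elsewhere. Shh was lowest of the mutants in K14J26 (267.2 CPM), inside the control range of 240.2 to 328.4 CPM.

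Notch3, known from the smooth muscle and pericytes of vessels (ENSMUSG00000038146, chromosome 17 from 32120820 to 32166852, minus strand), ranged from 50.5 to 67.2 CPM in controls and from 50.4 to 61.1 CPM in mutants. Its log2 fold change was -0.12 (95% confidence interval -0.35 to 0.11, edgeR adjusted p = 0.415), and without J6 and J7 it was 0.025. Notch4, known from endothelium (ENSMUSG00000015468, chromosome 17 from 34564268 to 34588503, plus strand), ranged from 11.5 to 12.4 CPM in controls and from 11.8 to 14.4 CPM in mutants. Its log2 fold change was 0.09 (95% confidence interval -0.12 to 0.30, edgeR adjusted p = 0.524), and it was -0.0073 with library size as the only scaling. Neither receptor separated the groups. The pericyte and vascular smooth muscle list, led by Acta2, summed to 614, 630, 536 and 648 CPM in J3, J5, J6 and J7 and to 441, 641, 545 and 470 CPM in K14J26, K14J28, K14J29 and K14J30, with 1 of its 8 genes called higher (Kcnj8) and 1 lower (Pdgfrb).

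The order of the receptors per kilobase in the controls was Notch2 (44.3 ± 2.14, SD, n = 4), Notch1 (7.28 ± 0.485), Notch3 (7.24 ± 0.902) and Notch4 (1.49 ± 0.0520). Notch1 and Notch3 overlapped, and every other neighbouring pair in the order of all 9 genes was separated in the controls. With the longest transcript as length, the order of the controls was the same and Notch1 (10.9 CPM per kilobase) was further from Notch3 (7.30), while Dll4 (1.76 to 2.44) and Notch4 (1.74 to 1.87) then overlapped. The mutants had 40.7 ± 6.06 CPM per kilobase of Notch2, 7.51 ± 0.608 of Notch1, 6.65 ± 0.615 of Notch3 and 1.58 ± 0.144 of Notch4. In the mutants Jag1 had come down into the range of Notch1 and Notch3, from a control level above both. By the longest transcript, mutant Jag1 (6.06 to 10.2 CPM per kilobase) lay below mutant Notch1 (10.6 to 12.6) and overlapped mutant Notch3 (6.29 to 7.63), so the overlap with Notch1 depended on the length used. Notch2 made up 73.5% ± 1.73 of the receptor level in controls and 72.0% ± 1.84 in mutants, Notch1 12.1% ± 0.608 and 13.4% ± 0.879, Notch3 12% ± 1.39 and 11.8% ± 0.657, and Notch4 2.47% ± 0.175 and 2.84% ± 0.473 (SD, n = 4 each), with overlapping values throughout. The receptor sum was 60.3 ± 2.46 CPM per kilobase in controls and 56.4 ± 7.11 in mutants.

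**Figure D4:**
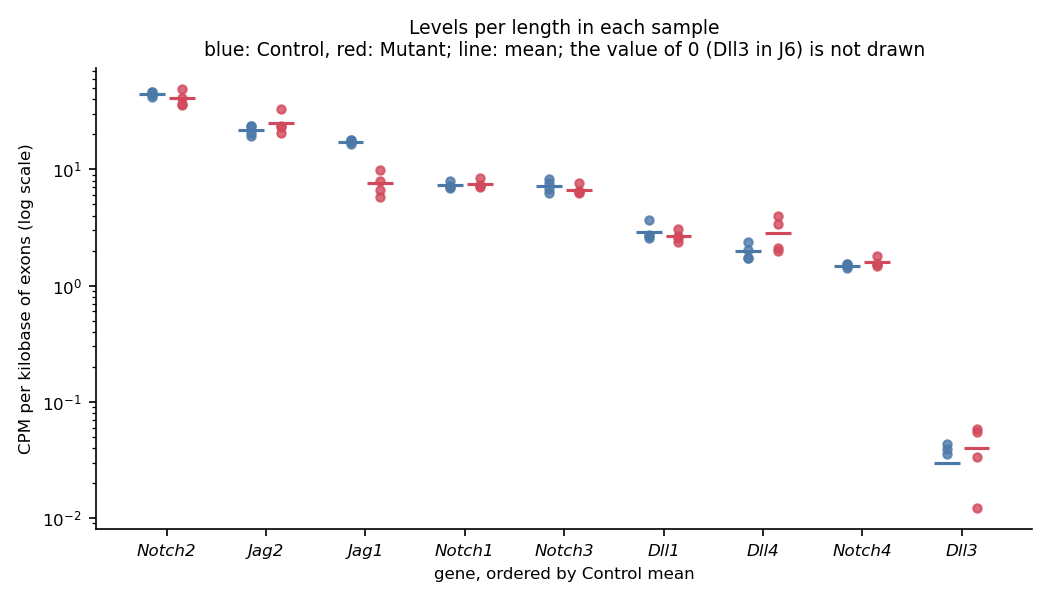
CPM per kilobase of annotated exons (y axis, log scale) of the 9 genes (x axis, ordered by control mean), with a point per control sample (blue) and per mutant sample (red) and a line at each group mean. Notch2 leads with a control mean of 44.3, Jag1 drops from 17.3 to 7.55 and on this length overlaps Notch1 and Notch3, and Dll3 lies far below the others.

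Beyond the ligands and receptors, 67 pathway genes in 8 lists by role were examined, and 66 were tested (Dlk1 was listed at 0 in all samples, and whether this reflects the tissue or the counting cannot be told from the files). Of these, 2 were called higher and 12 lower, together 21.2%, beside 16.1% of all tested genes, and the median log2 fold change was -0.06. The counts of higher and lower genes were 1 and 5 without J3, 1 and 6 without J5, 1 and 5 without J7, 8 and 16 without K14J28, and 1 and 4 without K14J29. Without J6 and J7 together none was called.

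Lfng, the Fringe glycosyltransferase that adds sugars to Notch receptors and shifts their response between Jagged and Delta-like ligands, was called lower. It was at 88.5, 89.5, 78.3 and 89.4 CPM in J3, J5, J6 and J7 and at 44.0, 49.1, 33.1 and 37.9 CPM in K14J26, K14J28, K14J29 and K14J30. All mutants lay below all controls. Lfng fell by 1.08 on the log2 scale (standard error 0.12, edgeR adjusted p = 0.00485), and it was called in all 8 fits that left out 1 sample. The other 5 genes of this list were not called, Mfng and Rfng included (-0.27 and 0.28).

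In the receptor cleavage list, 1 of 10 genes was called, Aph1b of the gamma-secretase complex (-0.37), and the list's median was 0.10. None of the 7 genes for ligand endocytosis was called, Mib1 included, whose log2 fold change was 0.05. Among 10 genes of receptor trafficking and turnover, the ubiquitin ligase Itch (0.52) and the endocytic adaptor Numb (0.32), both known to limit Notch receptors, rose, and the Deltex gene Dtx1 fell (-0.77). Itch was at 75.2, 70.5, 73.2 and 67.8 CPM in J3, J5, J6 and J7 and at 98.5, 107, 106 and 99.5 CPM in K14J26, K14J28, K14J29 and K14J30, with an edgeR adjusted p of 0.00517. Every mutant was above every control. Among 9 genes of the nuclear complex, the Mastermind gene Maml2 (-0.39) and the acetyltransferase gene Kat2a (-0.30) fell, and Rbpj had a log2 fold change of -0.03. Of 10 corepressors, Tle1 (-0.70) and Ctbp1 (-0.23) fell. In the list of non-canonical ligands, Dner (-0.64) and Mfap2 (-0.23) fell among 6 tested genes. Of these, 9 lost their call when some single samples were left out: Numb, Maml2 and Dner without J3, J5, J7 or K14J29, Dtx1 without J3, J7 or K14J29, Tle1 without J3, J5, J7, K14J29 or K14J30, Kat2a, Ctbp1 and Mfap2 without any 1 control or without K14J29, and Aph1b without K14J29. Their edgeR adjusted p values in those 8 fits reached at most 0.0931 for Numb, 0.0795 for Maml2, 0.0843 for Dner, 0.0637 for Dtx1, 0.0860 for Tle1, 0.0793 for Kat2a, 0.0988 for Ctbp1, 0.101 for Mfap2 and 0.0516 for Aph1b, and none of the signs turned. With Xist as a covariate, Dtx1, Maml2, Kat2a, Ctbp1, Dner and Mfap2 were not called either (edgeR adjusted p = 0.0613, 0.0667, 0.0688, 0.101, 0.0516 and 0.111), and both samples with high Xist were mutants. The log2 fold changes of these genes in that fit, in the same order, were -0.72, -0.39, -0.30, -0.21, -0.74 and -0.20. Of all 18 alternatives, Aph1b was called in 16, Numb, Dtx1 and Tle1 in 12, Maml2, Kat2a and Dner in 11, and Ctbp1 and Mfap2 in 8.

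**Figure D5:**
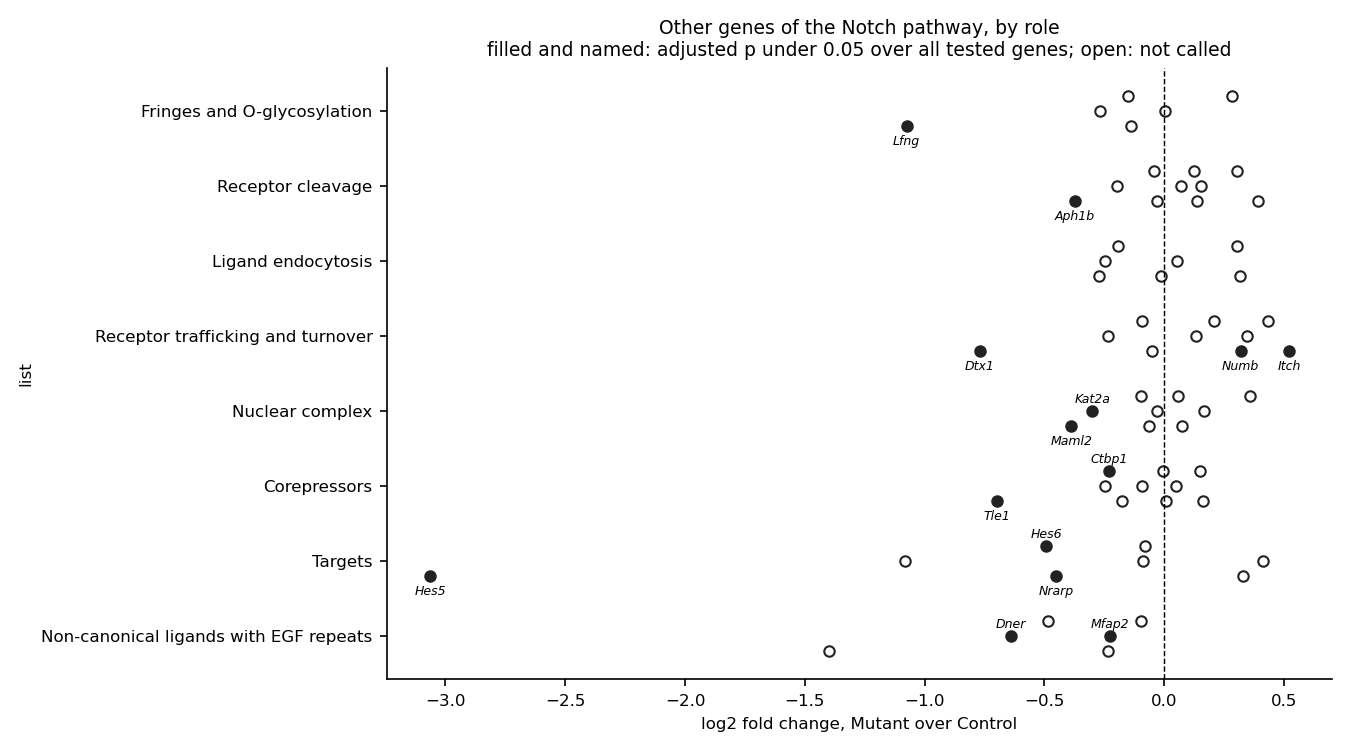
Log2 fold change of mutant over control (x axis) for the 66 tested pathway genes, grouped by role (y axis), filled and named where the adjusted p over all tested genes was under 0.05 and open where it was not. The called genes lie on the lower side in 12 cases, from Hes5 at -3.06 to Mfap2 at -0.23, and on the higher side in 2, Numb at 0.32 and Itch at 0.52.

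The target list, made of Hes and Hey transcription factor genes and Nrarp, held 3 genes called lower and none called higher of 8, beside 6.61% and 9.52% of all tested genes. The list was set by gene name, and whether each gene, Hes6 included, responds to Notch in this tissue was not tested. Hes6 was at 30.8, 28.9, 27.4 and 26.6 CPM in J3, J5, J6 and J7 and at 19.2, 21.2, 19.1 and 21.3 CPM in K14J26, K14J28, K14J29 and K14J30 (log2 fold change -0.49, edgeR adjusted p = 0.00978). Nrarp, a feedback inhibitor of the Notch complex, was at 40.2, 39.7, 37.0 and 35.0 CPM in the same controls and at 30.3, 26.5, 27.0 and 27.2 CPM in the same mutants (log2 fold change -0.45, edgeR adjusted p = 0.0104). For both genes 4 of 4 mutants lay below every control. Hes5 was near the detection limit, with 11, 12, 11 and 12 counts in J3, J5, J6 and J7 and 1, 1, 2 and 2 counts in K14J26, K14J28, K14J29 and K14J30. Hes5 was lower in 4 of 4 mutants, with an edgeR adjusted p of 0.00557. Counts were also summed over the groups and scaled to library size with the TMM factors. On this scale the mutant level of Hes5 was 11.3% of the control level (95% exact counting interval 3.94% to 26.5%, counting error only). This ratio was chosen after the values were seen.

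The 5 other targets of the list were not called. Hey2 was at 28.7, 22.9, 15.5 and 20.1 CPM in J3, J5, J6 and J7 and at 5.67, 17.2, 6.90 and 11.1 CPM in K14J26, K14J28, K14J29 and K14J30. K14J28 lay inside the control range and the other 3 mutants below it. The log2 fold change of Hey2 was -1.08 (standard error 0.33, edgeR adjusted p = 0.0531), and without K14J28 it was -1.46 and called, with an adjusted p of 0.00841 (edgeR, in a range of 0.00605 to 0.163 over the alternatives). Hey2 was called in 4 of the 18 alternatives, also with DESeq2, without a count filter, and without K14J28 and K14J29 together. Hey1 and Heyl had positive log2 fold changes of 0.33 and 0.41 (edgeR adjusted p = 0.103 and 0.0609), while Hes1 had -0.09 (0.475) and Hes7 -0.08 (0.901). Heyl was called in 2 of the 18 alternatives, without K14J28 (edgeR adjusted p = 0.0251) and with DESeq2 (0.0276), in a range of 0.0251 to 0.186 over the alternatives.

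The promoters of these genes were searched for TGGGAA, the core letters known for binding of RBPJ, and for GTGGGAA, which contains it, on both strands, in the RefSeq windows of GRCm38.p6 from 250 bases before to 50 bases after each start. TGGGAA was in 25.6% and GTGGGAA in 6.38% of the 32851 windows of this length. It was in none of the 10 windows of the 9 ligand and receptor genes. The target windows were searched after this result and the target values had been seen. Of the 8 targets, 5 had windows, and those of Hes5, Hes7 and Hey2 held TGGGAA, while those of Hes6 and Nrarp did not. Hes1, Hey1 and Heyl had no entry in the table. The windows of Jag1, the called ligand, and of Hes5 and Hey2, the targets with 2 matches each, are shown 5′ to 3′ with the matches on either strand in capitals. They lie at chr2:137116471-137116770 (minus strand), chr4:154960673-154960972 (plus strand) and chr10:30842734-30843033 (minus strand).
Jag1: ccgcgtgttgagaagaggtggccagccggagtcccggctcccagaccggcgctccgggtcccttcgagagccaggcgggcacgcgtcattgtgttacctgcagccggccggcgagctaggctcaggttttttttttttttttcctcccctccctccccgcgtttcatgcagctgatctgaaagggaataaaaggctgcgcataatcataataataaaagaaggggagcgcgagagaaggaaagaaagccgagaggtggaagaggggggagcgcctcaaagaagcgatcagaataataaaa
Hes5: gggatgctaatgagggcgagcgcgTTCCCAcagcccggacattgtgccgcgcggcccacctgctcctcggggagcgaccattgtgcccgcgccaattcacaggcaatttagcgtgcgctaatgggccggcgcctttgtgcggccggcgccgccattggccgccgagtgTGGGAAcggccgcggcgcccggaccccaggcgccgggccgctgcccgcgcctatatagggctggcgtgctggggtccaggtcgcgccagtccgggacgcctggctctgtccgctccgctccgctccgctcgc
Hey2: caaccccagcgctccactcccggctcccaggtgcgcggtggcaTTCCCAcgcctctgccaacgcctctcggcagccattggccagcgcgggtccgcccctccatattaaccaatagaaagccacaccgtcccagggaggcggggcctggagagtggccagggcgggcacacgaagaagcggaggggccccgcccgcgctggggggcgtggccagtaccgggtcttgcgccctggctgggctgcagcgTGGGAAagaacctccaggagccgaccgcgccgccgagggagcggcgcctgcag
In all 4 matches of Hes5 and Hey2 the letters were part of GTGGGAA. The match is a description of letters, and no binding was measured here.

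For each tested ligand or receptor, the genes with the most similar profile were taken as those with the highest Pearson correlation of log2(CPM + 1) over the 8 samples, among 11910 other genes with a mean of at least 5 CPM. The 8 samples share the group difference and the scaling, and the correlations are given as descriptions. Trip6 (0.99), Nnat (0.98) and Eif4b (0.98) were most like Jag1. Ap2a1 (0.99), Gpc4 (0.99) and Gigyf1 (0.98) were most like Jag2, and Pcdh18 (0.98), Cgnl1 (0.97) and Myo10 (0.97) were most like Dll4. Srebf2 (0.97) and Jup (0.91) were among those most like Dll1. Among the receptors, Plcb3, Cdyl2 and Dcaf5 led for Notch1 (0.98, 0.97 and 0.97), Zfp521, Atxn7l1 and Gab1 for Notch2 (0.98, 0.97 and 0.95), and Phldb3, Adamts17 and Zdhhc7 for Notch3 (0.93, 0.92 and 0.91). Slc9b2 and Reps2 were among those most like Notch4 (0.95 each). With the group means removed, the correlations with Jag1 were 0.84, 0.87 and 0.83 for these 3 genes, which had been picked over the same samples. Within groups, the member pairs with the highest correlation were Dll4 and Notch2 (0.87) and Jag2 and Notch3 (0.70), and that with the lowest was Jag1 and Notch2 (-0.71), over the same 8 samples. Among the mutants, K14J26 was highest in Dll4, Notch2, Jag2 and Notch3 and lowest in Jag1. The part of K14J26 in these correlations was not tested.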

How the data were processed

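RNA-seq counts of 8 molar samples were used. The authors deposited raw read counts per Ensembl gene, from reads cleaned with Trimmomatic and mapped by STAR to GRCm38. Their methods name GenomicRanges and the processing notes featureCounts for counting, and neither gives the handling of strand or of reads with several matches. The kit does not mark strand.

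Groups followed the labels. Symbols and exon lengths came from GENCODE M21. A gene entered when 2 or more samples of a group had 10 or more counts. Testing used edgeR 4.0.16 (R 4.3.3, TMM, quasi-likelihood, no covariate, Benjamini-Hochberg over all tested genes), with standard errors as the log2 fold change over the root of F. The code was tested on simulated data. Alternatives were 3 other scalings, DESeq2 1.42.0, 2 other filters, an Xist covariate, leaving out the 20 most abundant genes, each sample, J6 with J7, or K14J28 with K14J29, the call criteria of the study, and longest-transcript lengths. Dll3 was left out of testing by the filter. Counting intervals and floors cover counting error only.

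The members and lists were chosen with earlier results of these data known. Named are the members, list genes, genes overlapping a member, Xist, Acta1 and up to 3 of the most similar genes per member. The choice among list genes followed a look at their values.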

Additional observations from a re-analysis of the deposited data

Results flagged for a closer look

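In the controls, the summed level of the 8 target genes was 231 CPM in J7 against 270 to 274 CPM in J3, J5 and J6, a gap of 0.916 of the range of the group. J7 also had the lowest control level of Hey1, the most abundant target, at 70.4 CPM against 83.3, 88.5 and 93.7 CPM in J3, J5 and J6. This was 1 of 74 groups of 4 samples examined in this way, over members, list sums and single genes, and the threshold, Dixon's 95% critical value, is by its definition passed by chance in about 1 in 20 groups. None of the 18 groups of the ligands and receptors themselves held a sample this far from the others.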

How the results depend on the processing

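Over 18 alternatives, Jag1 was lower in each and was called in 17. Without J6 and J7 its log2 fold change was -1.17 with an edgeR adjusted p of 0.115, and no ligand or receptor was called lower (0). Leaving out each sample in turn gave -1.34 to -1.09 for Jag1, 0.04 to 0.29 for Jag2, -0.20 to 0.010 for Dll1, 0.34 to 0.67 for Dll4, -0.013 to 0.085 for Notch1, -0.23 to -0.068 for Notch2, -0.19 to -0.05 for Notch3 and 0.02 to 0.12 for Notch4, with 1 to 2 members called lower. By the criteria of the study, applied to the log2 scale, 1 member, Dll4, was called higher. Signs turned without J6 and J7 for Dll1 (0.015) and Notch3 (0.025), and with library size only for Notch1 (-0.062) and Notch4 (-0.0073), none of them called. Jag2 and Dll4 were positive in all 18 fits and not called at the adjusted p in any of them.

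Over all genes, leaving out single samples gave 250 to 2479 higher and 170 to 1843 lower genes. Library size only gave 855 higher genes, DESeq2 1718 lower, the Xist covariate 733 lower, leaving out K14J28 and K14J29 741 lower, and leaving out J6 and J7 3 higher and 4 lower, where fewer controls remain. The higher share of the calls was 59.0%, against 48.5% with upper quartile scaling and 44.6% with library size only.

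Among the pathway genes, leaving out single samples gave 1 to 8 higher and 4 to 16 lower. Library size only gave 1 higher, DESeq2 6 higher, the Xist covariate 5 higher and 6 lower, leaving out K14J28 and K14J29 5 higher, and leaving out J6 and J7 0 in both directions. Lfng, Itch, Hes5, Hes6 and Nrarp were each called in 17 of the 18, the exception being without J6 and J7. Hes1 turned to 0.024 with the Xist covariate and 0.013 without K14J28 and K14J29, and Rbpj ran from -0.076 to 0.015 over single samples left out. With the longest transcript as length, the Jag1 share of the ligand level in controls was 33.9%. The cause of these shifts was not tested. Each group held 4 embryos, and for genes with few counts, such as Dll3 and Hes5, depth also limits the values.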

Other observations

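The remaining marker lists place the ligands and receptors in the makeup of the samples. The arterial endothelium list, which holds Hey2, had none of 5 genes called, and its summed level was 103 ± 7.54 CPM in controls and 102 ± 10.2 CPM in mutants (SD, n = 4 each). These sums combined opposite differences. Efnb2, the most abundant gene of the list, had a mean of 63.4 CPM in controls and 73.6 CPM in mutants, while Hey2 had 21.8 and 10.2 CPM. Gja5, Sox17 and Cxcr4 had log2 fold changes of 0.03, -0.13 and 0.01. Macrophage and red blood cell lists had no called gene of 4 and 5 tested. Of the 7 dental mesenchyme markers, led by Col1a1, 3 were called higher and 2 lower (edgeR, adjusted p as above), and of the 4 osteoblast markers 2 were called higher. Of the 5 neuron and Schwann cell markers 1, Tubb3, was called higher, and of the 7 skeletal muscle markers 1, Ckm, was called lower. The summed macrophage level was highest in K14J28, at 141 CPM against 43.8 to 72.8 CPM in the other 7 samples. This sum rested on Csf1r (92.8 CPM) and Cd68 (42.3 CPM), while Adgre1 (4.79 CPM) and Aif1 (1.497 CPM) were not highest in K14J28. K14J28 was also the sample with the highest Notch4, at 14.4 CPM. The part of macrophages in the Notch4 value was not tested.

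Other genes overlap the members in the annotation. Gm13568 and 0610009E02Rik lie antisense to Notch1 exons, covering 2.91% and 7.5% of them, Gm17276 lies antisense to 6.03% of Notch3 exons, and Gm42820 lies on the strand of Notch2 over 5.02% of its exons and was not counted. The antisense genes had means of at most 3.03 CPM, and none of those tested was called.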
